A study of Homo sapiens with 6 samples.

Results

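The 40 genes described here encode proteins that make ribosomes in the nucleolus. They were listed by name for their textbook roles; the rule used no value from these samples, but earlier results of these data were known when the list was made. All 40 were found among the 22413 genes of the deposited expression table. By role they comprise 4 nucleolar phosphoproteins and chaperones (Ncl, Npm1, Npm3, Nolc1), 4 proteins of the box C/D snoRNPs (Fbl, Nop56, Nop58, Rrp9) and 4 of the box H/ACA snoRNPs (Dkc1, Gar1, Nhp2, Nop10). A further 11 act on the small ribosomal subunit (Nop14, Wdr43, Wdr75, Utp4, Utp15, Utp18, Utp20, Rrp12, Bysl, Tsr1, Ddx10) and 9 on the large subunit (Nop2, Nop16, Bop1, Pes1, Wdr12, Rrp1b, Rrs1, Ebna1bp2, Gnl3). The remaining genes are 6 of RNA polymerase I and its factors (Polr1a, Polr1b, Polr1c, Polr1e, Ubtf, Rrn3) and 2 cofactors of rDNA transcription and processing (Ddx21, Mybbp1a).

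The study compared 3 control samples of BaF3-T315I cells with 3 samples exposed to 1.1 µM I13, a histone deacetylase inhibitor, for 48 h. BaF3 is a murine pro-B cell line, and all 6 samples carried the stably transfected BCR-ABL oncogene with the T315I substitution, which makes the kinase resistant to imatinib. The labels give no vehicle for the controls, and whether the transfected line was 1 clone is not stated in the sources used here. The comparison asks which transcripts differed after I13 exposure in these imatinib-resistant cells. Nothing in the labels says that replicates came from separate cultures, and the study's statistics section speaks of independent experiments in general without naming the sequencing. The p-values measure the spread between these samples, which may be technical.

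The nucleolus forms around the tandem rDNA repeats, which RNA polymerase I transcribes into a single long precursor RNA. Box C/D snoRNPs place 2'-O-methyl groups on this precursor and box H/ACA snoRNPs convert uridines to pseudouridines, while assembly factors fold and cleave it into the RNAs of the small and large subunits. Growing leukemia cells have high demand for ribosomes, and many of these genes are known targets of the transcription factor MYC.

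Expression was deposited as FPKM, fragments normalized to gene length and library size. Levels of different genes depend on the length used for each, which was 10188 bases for Ncl and 2665 for Npm1. In control replicate 1 Ncl had 33717 fragments and 187 FPKM, and Npm1 had 31690 fragments and 671 FPKM. Ranks between genes are therefore ranks by FPKM, and ratios of 2 genes are compared between samples only. Each library held 16762119 to 17722950 fragments, and every member had between 712 and 50445 fragments in each sample, for a counting error of 3.75% at the lowest count and 0.445% at the highest. The line markers fitted the label in part. Csf2rb, a subunit of the interleukin-3 receptor, stood at 239 to 463 FPKM in controls and 448 to 838 FPKM after I13. Csf2rb2 was at 196 to 408 and 449 to 795 FPKM. Their adjusted p was 0.220 and 0.165 without the replicate block described below, and 0.0313 and 0.0312 with it (limma). Ptprc was at 10.2 to 10.9 FPKM in controls and 13.5 to 15.0 FPKM after I13. Il3ra was at 9.07 to 13.6 FPKM in controls and 12.2 to 18.2 FPKM after I13. Cd79b was at 3.57 to 6.94 and 3.67 to 6.79 FPKM. Bcr and Abl1 were lower after I13 with groups that did not overlap. Bcr was at 3.82 to 5.38 and 2.10 to 3.73 FPKM, and Abl1 at 10.5 to 12.7 and 9.18 to 9.67 FPKM. Their adjusted p was 0.211 and 0.246 without the block and 0.0623 and 0.130 with it (limma). The pre-B genes Vpreb1, Igll1, Ebf1 and Pax5 were at or near 0. Of 14 markers of other cell types, 8 were in the table, and without Pecam1 (35.5 to 45.9 FPKM) they summed to 0.756 to 1.20 FPKM in controls and 2.55 to 8.48 FPKM after I13. The higher sums after I13 came mostly from globins. Hba-a1 was at 1.18, 0.210 and 0.559 FPKM in controls and 5.66, 2.94 and 2.11 FPKM after I13. Hbb-bt was at 0.161, 4.58 and 0.081 FPKM after I13, so its share came from I13 replicate 2. Hbb-bs was at 0, 0.369 and 0.074 FPKM in controls and 0, 0.777 and 0.223 FPKM after I13. Cd3e, Cd8a, Col1a1 and Alb were at or near 0. Whether the globin transcripts came from other cells was not tested, and in bulk samples fewer cells of a type cannot be told apart from less RNA per cell.

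As a group the nucleolar genes were divided between higher and lower levels after I13. None of the 40 passed the test between the groups, which required an adjusted p below 0.05 and a log2 fold change of at least 0.58 in either direction (limma on log2(FPKM + 0.1), Benjamini-Hochberg adjustment over 12163 genes). Of all genes tested, 5 passed, or 0.0411%, so the lack of calls does not show that levels were unchanged. Members had mean levels from 11.7 to 687 FPKM and a median of 50.1 FPKM, against a median of 7.48 FPKM over all genes tested. Their log2 fold changes ran from -0.47 for Polr1c to 0.37 for Ncl, with 22 members higher after I13 and 18 lower. The median was 0.03, beside -0.01 for all genes tested.

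The lowest adjusted p among the 40 was 0.104, for Polr1c. At an unadjusted p below 0.05, 0 members were higher and 3 were lower (Fbl, Nhp2 and Polr1c), against backgrounds of 7.79% higher and 10.8% lower over all genes. The 95% interval of the difference lay wholly within 0.58 log2 units on either side of 0 for 30 of 40 members. It did so for 51.3% of all genes tested, whose median level was lower, and the part of level in this contrast was not tested. With same-numbered samples taken as pairs, as described next, it lay within those bounds for 37 of 40 members and 59.8% of all genes. The intervals of Ncl, Ddx10 and Polr1c still reached beyond 0.58 in that fit.

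**Figure D1:**
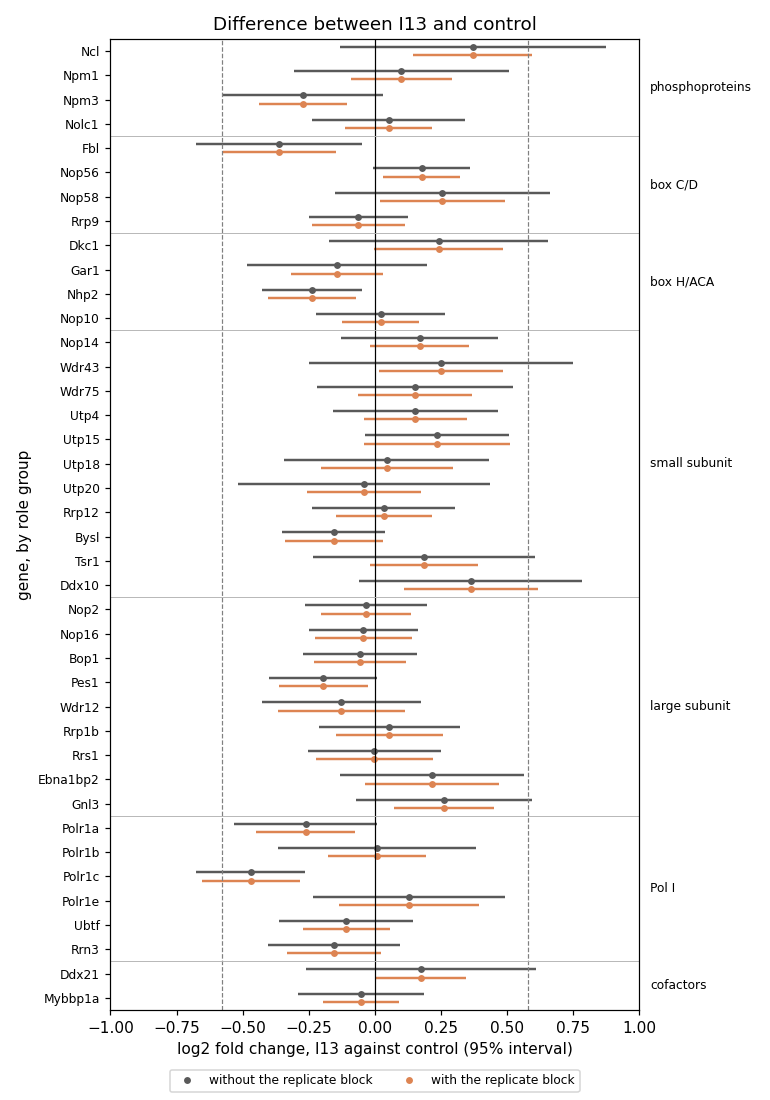
Log2 fold change of each of the 40 nucleolar genes (x axis, I13 against control, with its 95% interval), grouped by role on the y axis. Grey shows the limma fit without the replicate number as a block and orange the fit with it, and dashed lines mark 0.58 on either side of 0. Point estimates run from -0.47 (Polr1c) to 0.37 (Ncl), all inside the dashed lines.

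Deviations from the group means correlated weakly across the transcriptome between samples of the same replicate number (0.15, 0.30 and 0.22). The numbers were therefore also fitted as a block. With the replicate block 1 member, Polr1c, reached an adjusted p below 0.05 (adjusted p = 0.0458), against 2.99% of all genes in either direction and 1.24% in the lower direction. When pair 1, 2 or 3 was left out the Polr1c log2 fold change stayed at -0.41, -0.48 and -0.52, and the adjusted p was 0.0793, 0.305 and 0.0903. Those fits have 1 residual degree of freedom and called 85, 0 and 0 of all genes, so they say little of the stability of the call. The next lowest value was 0.077, for Fbl. None of the 40 also met the fold requirement, which 1.89% of all genes did. The blocked fit placed 7 members higher and 6 lower at an unadjusted p below 0.05, against 13.2% and 14.8% of all genes. When limma was run with voom weights on the recovered fragment counts and the same block, 4 members had an adjusted p below 0.05, against 12.4% of all genes: Polr1c (0.0105), Ncl (0.0236), Fbl (0.0292) and Ddx10 (0.0442).

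Without pairing, the spread between samples of the same group was as large as most differences between the groups. The range over the 3 controls exceeded the difference between group means for 34 of 40 members, beside 72.4% of all genes. That range includes differences between replicate numbers, which the block takes out. For Ncl, for example, the SE was 0.21 without and 0.09 with the block. The median control range of the members was 0.36 log2 units and their median absolute log2 fold change 0.15, where all genes tested had medians of 0.34 and 0.19. Control replicate 2 was above control replicate 3 for 40 of 40 members, compared with 55.6% of all genes. I13 replicate 2 was above I13 replicate 3 for 33 of 40 members, compared with 61.5% of all genes. The members thus moved together from sample to sample within each group. The order of control replicates 2 and 3 was not particular to the members. It also held for 67 of 76 mitochondrial ribosomal protein genes.

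The median deviation of the members from their own mean over the 6 samples was -0.06, 0.18 and -0.17 log2 units in control replicates 1, 2 and 3, and 0.07, 0.10 and -0.13 log2 units in I13 replicates 1, 2 and 3. Over all genes these medians lay between -0.06 and 0.06. The lowest of the 6 samples was control replicate 3 for 21 members and I13 replicate 3 for 10. Over all 12163 genes tested, the same samples were lowest for 1701 and 2860 genes. The highest was control replicate 2 for 18 members and I13 replicate 2 for 11. Over all genes tested, these were highest for 2750 and 2525 genes. The share of each library's fragments that fell on the 40 genes was 1.15, 1.36 and 1.01% in controls and 1.33, 1.35 and 1.08% after I13, and the groups overlapped. This share is weighted to Ncl and Npm1, which held 33717 and 31690 of the 204194 member fragments in control replicate 1.

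**Figure D2:**
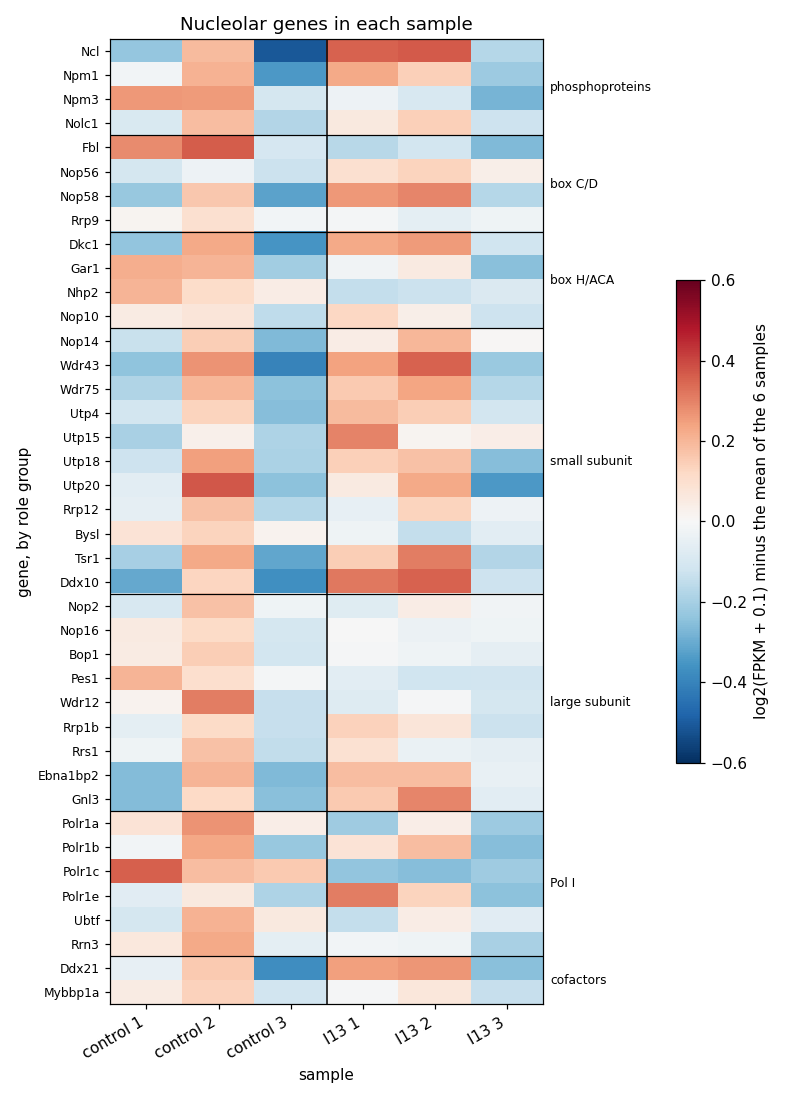
Each row is a nucleolar gene and each column a sample, and color gives log2(FPKM + 0.1) minus the gene's mean over the 6 samples. Control 2 and I13 2 are red in most rows and control 3 and I13 3 blue in most, with Polr1c, Fbl and Nhp2 among the rows in which the groups separate.

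Every value of 1 group lay above every value of the other for 7 members. Nop56 was the member with I13 wholly above control, and Fbl, Nhp2, Bysl, Pes1, Polr1a and Polr1c were those with I13 wholly below. Over all genes 9.82% were wholly above and 15.4% wholly below. Taken pair by pair, I13 was higher in all 3 pairs for 12 members and lower in all 3 for another 12, against 24.1% and 27.3% of all genes.

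Polr1c encodes a subunit shared by RNA polymerases I and III, and had the largest difference of the 40. Its level was 59.5, 52.8 and 51.7 FPKM in control replicates 1, 2 and 3, and 39.4, 38.8 and 39.9 FPKM in the same-numbered I13 replicates. All I13 samples were below all controls and lay close together, with means of 54.6 ± 4.24 FPKM in controls and 39.4 ± 0.567 FPKM after I13 (SD, n = 3). The log2 fold change was -0.47 (SE 0.09, adjusted p = 0.104 without and 0.0458 with the replicate block, limma). Within pairs 1, 2 and 3 the log2 difference was -0.59, -0.44 and -0.37. Polr1d, the partner of Polr1c in the same assembly platform, differed by -0.05 on the log2 scale (adjusted p = 0.777). The FPKM ratio of Polr1c to Polr1d was 1.85, 1.54 and 1.52 in controls and 1.23, 1.28 and 1.16 after I13, and the groups of this ratio did not overlap. The ratio of Polr1c to Polr1b, 2.88, 2.15 and 2.89 in controls and 1.78, 1.63 and 2.28 after I13, had overlapping groups. Both partners were chosen after the values were seen.

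The other RNA polymerase I genes showed smaller differences, and 4 of the 6 in this role were lower after I13 (median log2 fold change -0.13), as they were under each other scaling. Polr1a, the largest catalytic subunit, stood at 14.1, 16.0 and 13.7 FPKM in controls and 11.4, 13.7 and 11.4 FPKM after I13 (log2 fold change -0.26, SE 0.12, adjusted p = 0.28). Its 3 pair differences lay between -0.29 and -0.23, and I13 replicate 2 was almost level with control replicate 3. Polr1b, the second catalytic subunit, was at 20.7, 24.5 and 17.9 FPKM in controls and 22.1, 23.8 and 17.5 FPKM after I13. The replicate numbers separated Polr1b more than the groups did, and its log2 fold change was 0.01 (SE 0.16, adjusted p = 0.985).

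Ubtf binds rDNA and keeps it open for transcription. Its level was 45.3, 56.3 and 50.6 FPKM in controls and 44.1, 50.2 and 46.5 FPKM after I13, lower in each pair with overlapping groups (log2 fold change -0.11, adjusted p = 0.622). Rrn3, the initiation factor that brings the polymerase to the rDNA promoter, was at 35.6, 39.9 and 32.7 FPKM in controls and 33.7, 33.5 and 29.8 FPKM after I13 (log2 fold change -0.15, adjusted p = 0.471). Polr1e, a subunit active in initiation and elongation, was the member of this role with the highest positive value, 0.13 on the log2 scale (adjusted p = 0.691). Its pairs disagreed, with 13.8, 15.0 and 12.7 FPKM in controls and 17.8, 15.8 and 12.1 FPKM after I13.

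Among the box C/D snoRNP proteins, the core subunits differed in opposite directions. Fbl, fibrillarin, is the methyltransferase of the particle. It stood at 75.9, 80.3 and 58.1 FPKM in controls and 55.6, 57.8 and 52.0 FPKM after I13, with all I13 samples below the lowest control. The log2 fold change was -0.36 (SE 0.13, adjusted p = 0.218). Its scaffold partner Nop56 was at 99.5, 105 and 97.8 FPKM in controls and 114, 117 and 110 FPKM after I13, all I13 samples above the highest control. The log2 fold change of Nop56 was 0.18 (SE 0.08, adjusted p = 0.281). Neither difference passed the test.

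Nop58, the other scaffold protein, was at 28.2, 36.9 and 26.4 FPKM in controls and 39.5, 40.4 and 29.3 FPKM after I13 (log2 fold change 0.25, adjusted p = 0.464). I13 replicate 3 fell among the controls. Rrp9, which belongs to the U3 particle, varied little, with 35.6, 37.6 and 34.7 FPKM in controls and 34.9, 33.8 and 34.6 FPKM after I13 (log2 fold change -0.06, adjusted p = 0.708). The FPKM ratio of Fbl to Nop56 was 0.763, 0.766 and 0.594 in controls and 0.486, 0.492 and 0.474 after I13. The ratio of Fbl to Nop58 was 2.70, 2.17 and 2.20 in controls and 1.41, 1.43 and 1.77 after I13. Both ratios were chosen after the values were seen and are given without a test, and the separation of the Fbl to Nop56 ratio follows from that of the genes themselves.

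The box H/ACA proteins also divided. Dkc1, the pseudouridine synthase dyskerin, was at 43.2, 59.6 and 39.9 FPKM in controls and 59.6, 60.8 and 46.8 FPKM after I13 (log2 fold change 0.24, SE 0.18, adjusted p = 0.495). Control replicate 2 reached the level of the I13 samples. Nhp2, an RNA-binding subunit of the same particle, had the second highest mean FPKM of the members. It was at 326, 305 and 292 FPKM in controls and 256, 259 and 266 FPKM after I13. All its I13 values were below all controls, with a log2 fold change of -0.24 (SE 0.08, adjusted p = 0.192). The FPKM ratio of Nhp2 to Dkc1 was 7.55, 5.12 and 7.32 in controls and 4.30, 4.26 and 5.69 after I13, and here the groups overlapped.

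The remaining H/ACA subunits were close to their control levels. Gar1 was at 61.6, 61.1 and 45.9 FPKM in controls and 52.3, 55.1 and 44.5 FPKM after I13 (log2 fold change -0.14, adjusted p = 0.629). Nop10 was at 224, 228 and 195 FPKM in controls and 236, 222 and 199 FPKM after I13 (log2 fold change 0.02, adjusted p = 0.93). For both genes the samples of replicate 3 were the lowest of their groups.

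**Figure D3:**
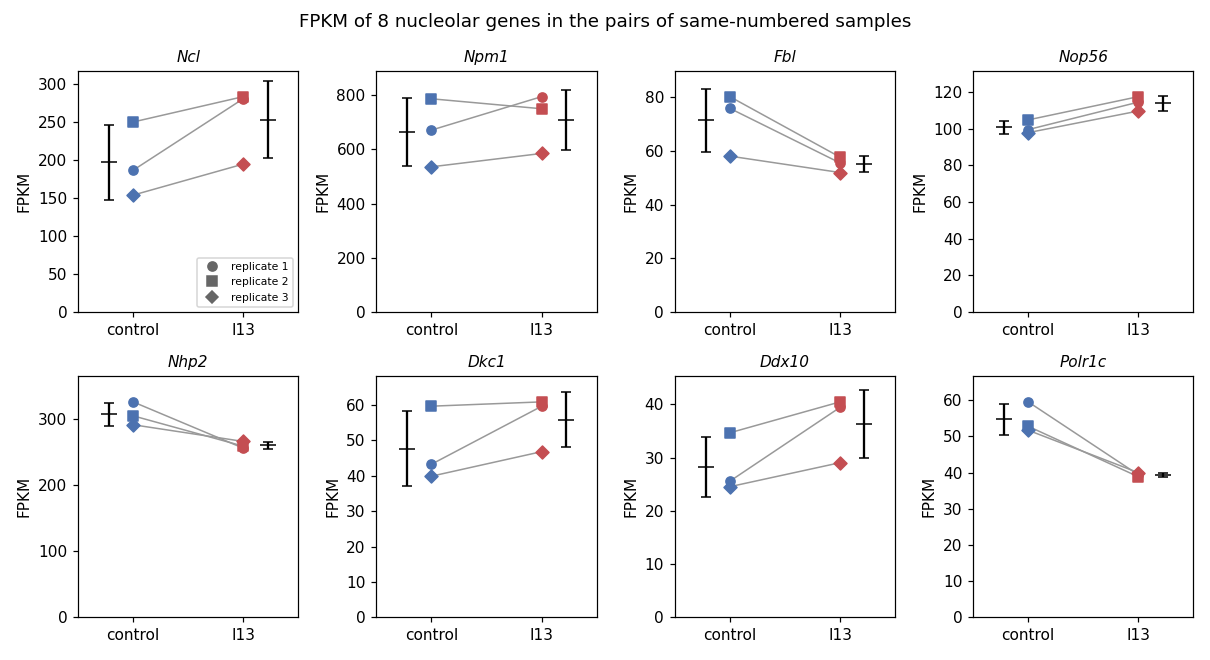
FPKM (y axes from 0) of 8 nucleolar genes in control and I13 samples, with grey lines joining samples of the same replicate number and black bars giving the group mean ± SD (n = 3). Polr1c, Fbl and Nhp2 are lower and Nop56 is higher after I13 in every sample, whereas Ncl, Dkc1 and Ddx10 are higher in each pair with groups that overlap.

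The nucleolar phosphoproteins include the member with the highest FPKM, Npm1. Ncl, nucleolin, which binds precursor rRNA, had the largest positive difference of the 40. It stood at 187, 250 and 154 FPKM in controls and 281, 284 and 195 FPKM after I13, with means of 197 ± 48.9 and 253 ± 50.5 FPKM (SD, n = 3). I13 was higher in each pair, by 0.59, 0.18 and 0.34 log2 units, but I13 replicate 3 lay within the control range. The log2 fold change was 0.37 (SE 0.21, adjusted p = 0.391), and its 95% interval reached from -0.13 to 0.87. With the replicate block the interval was 0.14 to 0.59 and the adjusted p 0.0796, and with voom and the block the adjusted p was 0.0236.

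Npm1, nucleophosmin, a histone and ribosomal protein chaperone, had the highest level of all members at 671, 786 and 536 FPKM in controls and 794, 750 and 585 FPKM after I13. Its pairs disagreed in direction, and the log2 fold change was 0.10 (SE 0.17, adjusted p = 0.788). Npm3, a relative of Npm1, was at 91.6, 91.3 and 71.1 FPKM in controls and 75.0, 71.5 and 63.0 FPKM after I13 (log2 fold change -0.27, SE 0.13, adjusted p = 0.307). A processed pseudogene, Npm3-ps1, was listed at 10.5 to 15.5 FPKM in controls and 9.41 to 11.4 FPKM after I13, and reads that it shares with Npm3 cannot be told apart. Nolc1, a chaperone of snoRNPs, was at 144, 175 and 136 FPKM in controls and 160, 170 and 141 FPKM after I13 (log2 fold change 0.05, adjusted p = 0.85).

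Small subunit processing factors were the role with the most members on the higher side. After I13 9 of 11 were higher and 2 lower, with a median log2 fold change of 0.15 and a range from -0.16 to 0.36, and 6 were higher in every pair. The split of 9 to 2 was the same under each other scaling and after the length correction. None had an unadjusted p below 0.05 without the replicate block. With the block 2 did, Ddx10 and Wdr43 (unadjusted p = 0.0135 and 0.0406, limma), both higher, against 13.2% of all genes. Ddx10, a DEAD-box RNA helicase, had the largest value at 0.36 (SE 0.18, adjusted p = 0.324). It was at 25.6, 34.7 and 24.5 FPKM in controls and 39.4, 40.5 and 29.1 FPKM after I13, with I13 replicate 3 inside the control range.

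Wdr43, a subunit that joins the precursor during transcription, was likewise lowest in the replicate 3 samples of each group. It was at 63.3, 90.3 and 56.8 FPKM in controls and 88.6, 95.7 and 64.3 FPKM after I13 (log2 fold change 0.25, SE 0.21, adjusted p = 0.561). Rrp12, which acts in export of the pre-40S particle, was at 31.6, 37.0 and 29.1 FPKM in controls and 31.6, 35.9 and 32.0 FPKM after I13 (log2 fold change 0.03, adjusted p = 0.903). Bysl, a late pre-40S factor, was at 34.2, 35.4 and 32.7 FPKM in controls and 31.7, 29.3 and 30.9 FPKM after I13, wholly below control (log2 fold change -0.16, adjusted p = 0.358).

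Large subunit factors were centered near 0. After I13 3 of 9 were higher and 6 lower, with a median log2 fold change of -0.03. Scaling to TPM, by median ratios or by quantiles gave 4 higher and 5 lower, and a correction for gene length gave 6 higher and 3 lower. Gnl3, nucleostemin, a GTP-binding protein abundant in proliferating cells, had the largest value. It was at 59.0, 76.7 and 59.2 FPKM in controls and 78.8, 86.6 and 67.6 FPKM after I13 (log2 fold change 0.26, SE 0.14, adjusted p = 0.364).

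Pes1 and Bop1 are partners in the PeBoW complex, which the maturation of the large subunit requires. Pes1 was at 69.8, 65.1 and 60.2 FPKM in controls and 58.1, 55.9 and 56.1 FPKM after I13, wholly below control (log2 fold change -0.20, adjusted p = 0.283). Bop1 was at 109, 117 and 97.9 FPKM in controls and 105, 104 and 102 FPKM after I13, with overlapping groups (log2 fold change -0.06, adjusted p = 0.77). Rrs1, which helps to bring the 5S RNP into the particle, was at 53.9, 62.1 and 49.6 FPKM in controls and 58.5, 53.5 and 52.8 FPKM after I13 (adjusted p = 0.994).

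The cofactors completed the set. Ddx21, an RNA helicase that senses the state of both RNA polymerase I and II transcription, was at 118, 136 and 94.0 FPKM in controls and 145, 146 and 102 FPKM after I13 (log2 fold change 0.17, SE 0.19, adjusted p = 0.649). Mybbp1a, a nucleolar Myb-binding protein, was at 151, 160 and 135 FPKM in controls and 145, 153 and 132 FPKM after I13 (log2 fold change -0.05, adjusted p = 0.816). Both had overlapping groups, and in both the replicate 3 samples were lowest in each group.

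Wider lists of ribosome biogenesis genes held no gene with an adjusted p below 0.05, with or without the block (limma). Over all genes 2.99% had one with the block, and the unadjusted counts given for these lists stand against 7.79% higher and 10.8% lower. Of 46 other small subunit factors tested, 18 were higher and 28 lower after I13 (median log2 fold change -0.04), with Krr1 (0.44) and Bms1 (0.42) having the largest values, and 2 higher and 5 lower at an unadjusted p below 0.05. The 49 other large subunit factors tested were divided 26 higher to 23 lower (median 0.01), with Nop53 at -0.40 and Nmd3 at 0.37, and 3 higher and 5 lower at an unadjusted p below 0.05. These medians lay close to that over all genes tested.

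The 15 other RNA polymerase I genes tested had a median of 0.12, with 9 higher and 6 lower, of which 1 and 3 had an unadjusted p below 0.05. This list includes Polr2e, Polr2f, Polr2h, Polr2k and Polr2l, subunits shared with RNA polymerases II and III. The largest differences among them were negative: Tcof1, treacle, was at -0.36 (adjusted p = 0.214), and the polymerase subunits Polr2h and Znrd1 were at -0.36 and -0.35 (adjusted p = 0.183 and 0.165). The 9 snoRNP assembly factors had a median of -0.08, with Pih1d1 at -0.41, and the 13 exosome genes tested had a median of -0.06. Of 9 snoRNA host genes tested 7 were higher (median 0.16), but the largest difference was that of Snhg8, at -0.44 (adjusted p = 0.137). At an unadjusted p below 0.05, 2 assembly factors, 1 exosome gene and 1 snoRNA host gene were lower and 0 of these lists were higher.

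The MYC network was examined because many members are MYC targets. Its 10 genes were divided 6 higher to 4 lower, with a median log2 fold change of 0.05. Myc was at 142, 170 and 133 FPKM in controls and 195, 222 and 159 FPKM after I13 (log2 fold change 0.37, SE 0.15, adjusted p = 0.252). It was higher in each pair, and I13 replicate 3 lay within the control range, the same order of samples as in Ncl. Mycn was at 19.8, 23.6 and 24.9 FPKM in controls and 28.8, 50.4 and 41.5 FPKM after I13, with groups that did not overlap (log2 fold change 0.79, SE 0.20, adjusted p = 0.131 without and 0.0447 with the replicate block).

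Genes of the ribosome itself lay mostly on the lower side after I13. Of 78 cytosolic ribosomal protein genes tested, 72 were lower after I13 and 6 higher, with a median log2 fold change of -0.17. At an unadjusted p below 0.05, 26 of them were lower and 1 higher, where the backgrounds over all genes were 10.8% and 7.79%. With the replicate block 6 were lower at an adjusted p below 0.05 (Rpl3, Rplp0, Rpl10a, Rpl27a, Rps2 and Rps3, adjusted p of 0.0447 to 0.0478), against 1.24% of all genes. Rpl3, for example, was at 466, 407 and 472 FPKM in controls and 351, 325 and 338 FPKM after I13 (log2 fold change -0.40, adjusted p = 0.115 without the block). These genes took 9.29, 8.28 and 9.31% of the fragments in controls and 7.96, 7.25 and 8.14% after I13. Of the mitochondrial ribosomal protein genes tested 64 of 76 were lower, with a median of -0.15, led by Mrps28 at -0.54 (adjusted p = 0.12). The difference between either list and the nucleolar genes was not tested.

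The cytosolic ribosomal protein genes also ordered the samples differently from the 40 nucleolar genes. Control replicate 2 was above control replicate 3 in 7 of 78, where all 40 nucleolar genes had it above. Other lists shared the nucleolar order, with 43 of 46 other small subunit factors, 44 of 49 other large subunit factors and 13 of 13 exosome genes. So did 67 of 76 mitochondrial ribosomal protein genes. Gene length, as recovered from the FPKM, differed as well. The median was 1730 bases for the cytosolic and 2143 for the mitochondrial ribosomal protein genes. It was 3867 for the 22 nucleolar genes that were higher after I13 against 2978.5 for the 18 that were lower. After a correction for length the medians were -0.12, -0.11 and 0.05 for the cytosolic, mitochondrial and nucleolar lists. Under quantile normalization 60 of 78 cytosolic genes were lower (median -0.10). Many ribosomal protein genes, like Npm1, have near-identical copies in the genome among which reads can be split.

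**Figure D4:**
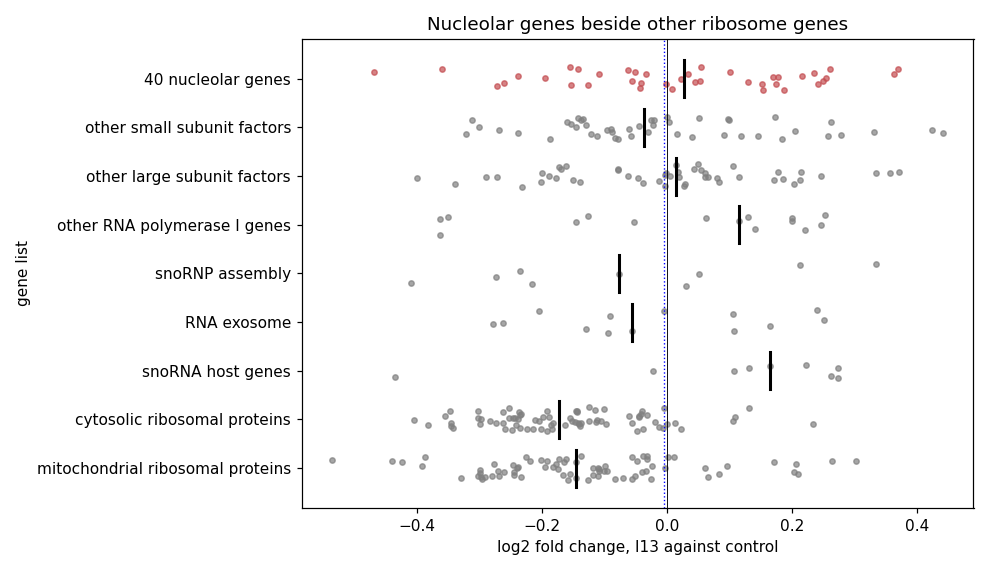
Log2 fold change (x axis, I13 against control) of each gene tested, by gene list on the y axis, with a black bar at each list's median. The solid line marks 0 and the dotted blue line the median of all genes tested (-0.01). The 40 nucleolar genes (red) spread to both sides of 0 with a median of 0.03, while the medians of the cytosolic and mitochondrial ribosomal proteins are -0.17 and -0.15.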

How the data were processed

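RNA from 3 control and 3 I13 samples was made into libraries with the TruSeq Stranded mRNA kit. The submitters' processing notes name Trimmomatic, HISAT2, Cufflinks, HTSeq and hg38, without versions or roles. The organism is labelled as human, but the deposited table lists mouse Ensembl genes and the study calls the line murine, and mouse gene names were used. Values per gene and sample were given by the authors as FPKM. Each FPKM is a whole fragment count divided by gene length and library size, and whole fragments were recovered for 22412 of 22413 genes (within 0.003 fragments), giving depth. Intervals on counts cover counting error only.

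The members and gene lists were chosen with earlier results of these data known. Of the markers of other cell types 1 is not reported here. Genes with a mean of at least 0.5 FPKM over all samples were kept, which all 40 members were, and log2(FPKM + 0.1) was tested with limma 3.58.1 (R 4.3.3, empirical Bayes with a trend), with Benjamini-Hochberg adjustment over all 12163 genes. Fold changes are on the log2(FPKM + 0.1) scale. Counts of members are compared with the same counts over all genes. An exact permutation of 3 against 3 samples cannot go below p = 0.1. The scripts were tested on simulated data, and figures were drawn in Python 3.11.15 with matplotlib 3.10.9.

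Labels number the replicates. Deviations from the group means correlated at 0.15, 0.30 and 0.22 between samples of the same number. Between samples of different numbers they correlated at -0.26 to 0.05. Deviations within a group sum to 0, so these lower values follow in part from the higher ones. Same-numbered samples were treated as pairs, with blocked values given where they change a call. Sample values are given for members with an adjusted p below 0.05 with or without the block and, in each role, for those with the largest and smallest difference and the highest level, which came to 20. Npm3, Nop58, Gar1, Bysl, Pes1, Polr1a, Polr1e and Rrn3 were added after their values were seen. Of each wider list up to 3 genes with the largest difference were eligible to be named, and Polr1d, Myc and the ribosomal proteins called with the block were also added afterwards. Alternatives were other pseudocounts, filters, scalings, no trend, the block, voom on the recovered fragments, samples left out and, chosen after seeing the data, a loess correction for gene length.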

Additional observations from a re-analysis of the deposited data

How the results depend on the processing

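No alternative gave a member that met both the adjusted p and the fold requirement. The number of members with an adjusted p below 0.05, 0 as reported, was 1 with the replicate block and 4 with voom and the replicate block, and 0 under every other setting, including each sample left out and each pair left out of the blocked fit. The call of Polr1c with the block was lost without any pair and, with adjusted p = 0.0537, after the length correction with the block. Members with an unadjusted p below 0.05 numbered 3 as reported, 13 with the block, and 1 to 11 with a sample left out, from 1 without control replicate 1 or I13 replicate 1 to 11 without control replicate 2. That number was 5 with median-ratio scaling, quantile normalization or the length correction, 6 with no filter, 15 with the block and either voom or the length correction, and 8 in the blocked fit without any of the pairs. The median log2 fold change of the members, 0.03, ran from -0.05 without control replicate 3 to 0.13 without control replicate 2, so its sign was set by single samples. In the fit without voom the block changed no call of a member other than Polr1c, and with voom it added all 4. With a sample left out 0 of all 12163 genes had an adjusted p below 0.05, and with a pair left out of the blocked fit 85, 0 and 0, so the counts of 0 members there say nothing of stability.

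For the 28 members with a fold change given, 586 comparisons with an alternative kept the direction and side of the threshold, 25 turned the direction and 5 passed the threshold (Polr1c with the block, and Polr1c, Ncl, Fbl and Ddx10 with voom and the block). With a sample left out the log2 fold change ran from -0.046 to 0.23 for Npm1, -0.022 to 0.16 for Nolc1, -0.049 to 0.090 for Nop10, -0.045 to 0.13 for Rrp12, -0.13 to 0.0020 for Bop1, -0.077 to 0.086 for Rrs1, -0.10 to 0.14 for Polr1b and -0.12 to 0.0054 for Mybbp1a, each through 0. In the blocked fit Nop10 was -0.0050 and Polr1b -0.037 without pair 1, Rrs1 was 0.10 without pair 2 and Rrp12 was -0.020 without pair 3. Rrs1, at -0.002 as reported, was 0.018 with median-ratio scaling, 0.027 as TPM, 0.015 after quantile normalization and 0.045 after the length correction with or without the block. The cause of these shifts was not tested. Polr1c kept its direction throughout, at -0.51 to -0.41 with a sample left out.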
